A study of Rattus norvegicus with 10 samples.

Results

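Liver messenger RNA for the rat CYP3A enzymes, the receptors that govern their induction and genes of the same response was followed in rats given RG3487, a small molecule known to act on the alpha 7 nicotinic acetylcholine receptor. The members were 8 genes: Cyp3a23-3a1, Cyp3a2, Cyp3a9 and Cyp3a18 of the CYP3A subfamily, the receptor genes Nr1i2 (PXR) and Nr1i3 (CAR), the electron donor gene Por and the carboxylesterase gene Ces2c. They were found through every probe set that the platform annotation gives to exactly 1 of these symbols. This gave 9 of the 15899 probe sets on the array, 1 for each gene and 2 for Por, and 8 of the 9378 genes that have a probe set of their own, with no member left out. The study used Wistar Han rats of 6 to 8 weeks, 5 given RG3487 at 180 mg/kg by gavage and 5 given deionized water in the same volume of 5 ml/kg. Each liver was 1 animal and 1 Affymetrix array, sampled 24 h after the dose per the sample labels, whereas the series text names 2 h. Sex is not given in the sources used here, and rats were housed in groups of 5, so that cage and treatment cannot be told apart.

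PXR and CAR are nuclear receptors of the hepatocyte that bind foreign chemicals and steroids, pair with a retinoid X receptor and switch on genes for oxidation, conjugation and export. CYP3A enzymes are the textbook PXR targets and oxidize a large share of drugs. They receive their electrons from the NADPH-dependent reductase that Por encodes. In rat liver Cyp3a23-3a1 is known as the form induced by steroids such as dexamethasone, Cyp3a2 and Cyp3a18 as forms of adult males, and Cyp3a9 as a form more abundant in females.

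Because PXR acts on CYP3A genes through repeated half-sites near their starts, the start-site windows of the 4 CYP3A members are shown first. They run from 250 bases before to 50 bases after the start in RefSeq's promoter table (build GRCr8, 300 bases each, 5′ to 3′ on the gene's strand). All 8 members matched an entry there. Capitals mark the half-sites AGTTCA and AGGTCA on either strand, so that TGAACT is the first of them read from the other strand. Cyp3a23-3a1 lies at chr12:14398754-14399053 (minus strand), Cyp3a2 at chr12:14343808-14344107 (minus), Cyp3a9 at chr12:21960111-21960410 (minus) and Cyp3a18 at chr12:13994062-13994361 (plus).
Cyp3a23-3a1: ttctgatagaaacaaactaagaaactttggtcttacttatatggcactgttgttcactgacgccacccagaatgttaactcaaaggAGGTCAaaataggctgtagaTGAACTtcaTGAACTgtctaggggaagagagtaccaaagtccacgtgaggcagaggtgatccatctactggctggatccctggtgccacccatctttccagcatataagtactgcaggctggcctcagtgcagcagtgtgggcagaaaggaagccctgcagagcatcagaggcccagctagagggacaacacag
Cyp3a2: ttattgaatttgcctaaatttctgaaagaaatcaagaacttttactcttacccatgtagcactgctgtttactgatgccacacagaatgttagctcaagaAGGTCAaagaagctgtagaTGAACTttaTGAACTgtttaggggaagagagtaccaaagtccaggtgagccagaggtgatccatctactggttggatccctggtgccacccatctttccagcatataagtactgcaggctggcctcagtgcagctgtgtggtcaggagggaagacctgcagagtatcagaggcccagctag
Cyp3a9: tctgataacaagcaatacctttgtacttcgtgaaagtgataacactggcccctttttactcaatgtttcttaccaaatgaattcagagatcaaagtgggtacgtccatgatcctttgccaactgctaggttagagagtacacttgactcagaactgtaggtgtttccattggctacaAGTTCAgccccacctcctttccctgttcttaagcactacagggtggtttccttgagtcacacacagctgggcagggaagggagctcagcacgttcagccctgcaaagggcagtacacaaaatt
Cyp3a18: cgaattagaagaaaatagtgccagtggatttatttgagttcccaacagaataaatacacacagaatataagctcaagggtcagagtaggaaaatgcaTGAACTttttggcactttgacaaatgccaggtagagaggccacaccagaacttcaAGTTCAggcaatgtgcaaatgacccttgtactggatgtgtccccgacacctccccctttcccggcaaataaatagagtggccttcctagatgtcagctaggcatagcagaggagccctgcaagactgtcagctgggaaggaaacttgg

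Cyp3a23-3a1 and Cyp3a2 each held a direct repeat of AGTTCA with a spacing of 3 bases, known as DR3, on the strand opposite to the gene. In Cyp3a23-3a1 it spanned positions -144 to -130 and in Cyp3a2 positions -131 to -117, counted from 0 at the annotated start. DR3 was searched as AGTTCANNNAGTTCA, with AGGTCA allowed in either or both places, on both strands. It was found in 14 of 33469 windows of the table (0.0418%), which belong to 11 genes, and the 9 that are not members had no probe set among those tested. Cyp3a9, Ces2c and Nr1i2 each held a single AGTTCA half-site. Cyp3a18 held this half-site at -153 to -148 on the opposite strand and at -98 to -93 on its own strand. Thus 6 of the 8 members had this half-site against 14.5% of all windows. AGGTCA was present in 3 of 8 members (Cyp3a23-3a1, Cyp3a2 and Por) against 16.2% of windows. The repeats DR4, ER6 and ER8 built from the same half-sites, with spacings of 4, 6 and 8 bases, were in none of the members' windows and in 0.0179%, 0.00598% and 0.0149% of all windows. The windows of Cyp3a23-3a1 and Cyp3a2, neighbouring genes in GRCr8, aligned with 80.6% identity over the alignment, gaps counted as differences, and the other 5 pairs of CYP3A windows with 54.2% to 58.7%. A match is a description of the letters and not a measured binding site.

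**Figure D1:**
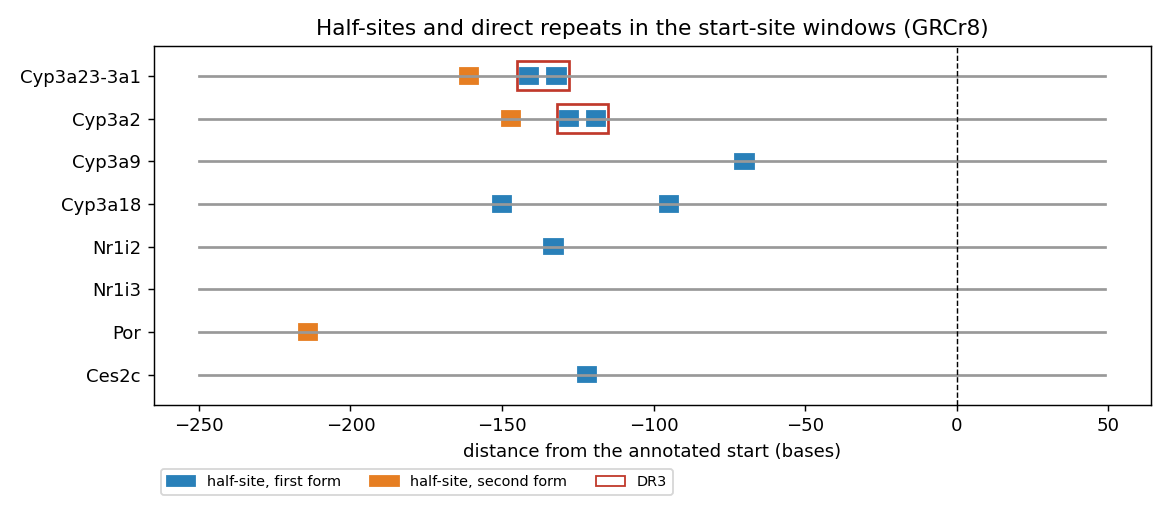
Positions of the half-sites AGTTCA (first form, blue) and AGGTCA (second form, orange) and of DR3 (red frame) in the start-site windows of the 8 members; the x axis is the distance in bases from the annotated start, and each grey line is 1 window of 300 bases. DR3 is present in Cyp3a23-3a1 and Cyp3a2 and in no other member.

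In the livers of RG3487 animals Cyp3a9 fell 1.70-fold, Cyp3a18 1.16-fold and Cyp3a2 1.13-fold on the analysed scale. Cyp3a23-3a1, both receptor genes, Por and Ces2c did not pass the test. No member rose. With 3 of 9 probe sets lower and 0 higher (limma, with 0 higher also at an unadjusted p under 0.05), the background was 27.7% of all 11894 probe sets tested called in either direction, 20.5% higher and 7.16% lower. Cyp3a2 and Cyp3a18 lay in the brightest 1% of the array, where 49.1% of probe sets were called lower. Both lost the call with quantile normalization (limma adjusted p = 0.858 and 0.345). Changes are differences of log2(signal + 16) between RG3487 and vehicle with their standard errors (n = 5 per group), and a call needed a Benjamini-Hochberg adjusted p under 0.05 over all probe sets tested. All 9 member probe sets passed the filter on low signal, with both group means above it. In whole liver, fewer cells of a type and less RNA per cell cannot be told apart.

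Arrays had mean signals of 330 to 332, so only relative levels were measured. Median signals lay between 85 and 93 in vehicle and between 92 and 96 with RG3487, and the change of all genes had a median of 0.0944. The balance of calls over all probe sets moved with array scaling: 2443 were higher and 852 lower as deposited, 1425 and 1195 with quantile normalization, 1359 and 1335 with median centring of each array, and 6683 and 354 when scaled to the spiked hybridization controls. The last scaling moved the median of all genes to 0.29, and rests on equal spiked amounts in every sample, which could not be checked. Hepatocyte markers were present: 9 of 10 had a probe set and none was listed at 0 on any array. Of the 9, 1 was higher (Hnf4a, 0.29) and 5 lower, against 22.3% and 7.4% of all genes. Alb (-0.018, limma adjusted p = 0.875), Fgb (-0.067, 0.321) and Ttr (-0.14, 0.0603) did not pass. The summed signal of the 9 ranged from 57446 to 60535 in vehicle and from 48342 to 56856 with RG3487, without overlap. It was thus lower with treatment, as were the signals of Cyp3a2, Cyp3a9 and Cyp3a18 below. The sum weighs bright probe sets most, and 49.1% of the brightest 1% of probe sets were called lower. The part of the lower sum in the CYP3A results was not tested. Summed signals of markers of other cells overlapped between the groups for the Kupffer cell (5 of 6 markers, 1440 to 1883 and 1215 to 1578), stellate cell (7 of 7, 1174 to 1543 and 1315 to 1480), bile duct (3 of 5, 122 to 204 and 154 to 294) and blood cell lists (3 of 7, 2819 to 4120 and 2647 to 3481). Those of the endothelial cell list did not overlap (5 of 6 markers, 2300 to 2569 in vehicle and 1949 to 2277 with RG3487). Of the tested markers of these lists, Cd163 of the Kupffer cell list (-0.37, limma adjusted p = 0.00316), Lyve1 of the endothelial list (-0.36, 0.00562) and Dcn of the stellate list (-0.52, 0.00354) were lower without overlap, Col1a1 of the stellate list was higher (0.35, 0.0267), and no other tested marker of these lists passed. No marker of these lists was at 0 on any array, and their part in the members' changes was not tested.

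Cyp3a9 had signals of 2228, 2069, 1849, 1558 and 2670 in vehicle animals 1 to 5 and of 1125, 848, 925, 1389 and 1964 in RG3487 animals 1 to 5. Of the RG3487 livers 4 lay below the lowest vehicle liver, while animal 5 lay above vehicle animals 3 and 4, so the groups overlapped. The means were 2075 ± 417 (SD, n = 5) and 1250 ± 451, and the log2 change was -0.77 ± 0.21 (95% interval -1.21 to -0.32, limma adjusted p = 0.0161). Relative to the median of all genes the change was -0.86. It passed under all 22 alternatives run, with changes between -0.95 and -0.57 and adjusted p between 0.00315 and 0.0395. The change was -0.95 without RG3487 animal 5, and -0.57 with scaling to the hybridization controls.

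Cyp3a18 read 5763, 5457, 5077, 5807 and 5958 in the vehicle animals and 5034, 4228, 5288, 4795 and 4761 in the RG3487 animals. Only RG3487 animal 3 exceeded a vehicle liver, that of animal 3. The mean went from 5612 ± 350 to 4821 ± 394, a log2 change of -0.22 ± 0.064 (adjusted p = 0.0229). The call was lost with quantile normalization (-0.08, adjusted p = 0.345) and with hybridization control scaling (-0.025, adjusted p = 0.719). Leaving out vehicle animal 4, vehicle animal 5 or RG3487 animal 2 also ended it (adjusted p = 0.0518, 0.0518 and 0.0511). Over all alternatives the adjusted p ranged from 0.0117 to 0.719.

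Cyp3a2 read 5589, 5612, 5508, 5727 and 6283 with vehicle and 5386, 5243, 5312, 4853 and 4689 with RG3487. Every RG3487 liver lay below every vehicle liver, which was the case for 1 of the 9 member probe sets and for 18.4% of all probe sets tested (20.2% of genes). The mean went from 5744 ± 311 to 5097 ± 307, a log2 change of -0.17 ± 0.053 (adjusted p = 0.0308). With quantile normalization the change was -0.011 (adjusted p = 0.858), and with hybridization control scaling it turned to 0.023 (adjusted p = 0.717). The call ended when vehicle animal 4 (adjusted p = 0.0547), vehicle animal 5 (0.0643), RG3487 animal 4 (0.0728) or RG3487 animal 5 (0.0704) was left out, and without a mean-variance trend (0.0712). Over all alternatives the adjusted p ranged from 0.0182 to 0.858.

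For Cyp3a23-3a1, the form best known for induction, the vehicle livers read 6556, 6333, 5380, 6304 and 6930 and the RG3487 livers 5747, 5771, 6568, 5856 and 5610. The groups overlapped, since vehicle animal 3 was the lowest of all 10 and RG3487 animal 3 was above 4 of the RG3487 livers and 4 of the vehicle livers. Means were 6301 ± 572 and 5910 ± 378, and the log2 change was -0.089 ± 0.067 (95% interval -0.23 to 0.06, adjusted p = 0.339). Under quantile normalization and hybridization control scaling the estimate turned to 0.075 and 0.11, with upper ends of 0.19 and 0.23.

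These 3 bright CYP3A probe sets ranked within the brightest 1% of the array, at percentiles 99.5 (Cyp3a23-3a1), 99.3 (Cyp3a2) and 99.3 (Cyp3a18) of mean log2 signal. Among all 159 probe sets of that brightest 1%, 78 (49.1%) were called lower and 4 (2.52%) higher, and the median change was -0.15 with an interquartile range of -0.24 to -0.083. The changes of Cyp3a2, Cyp3a18 and Cyp3a23-3a1 all lay inside that interquartile range, and that of Cyp3a9, at percentile 95.6, lay below it. With quantile normalization the median of the brightest 1% was 0.015. Whether the brightest probes responded in proportion to RNA was not tested. Cyp3a23-3a1 and Cyp3a2 are close relatives, and probe sequences were not used here, so the part of each signal that comes from the other gene is uncertain.

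**Figure D2:**
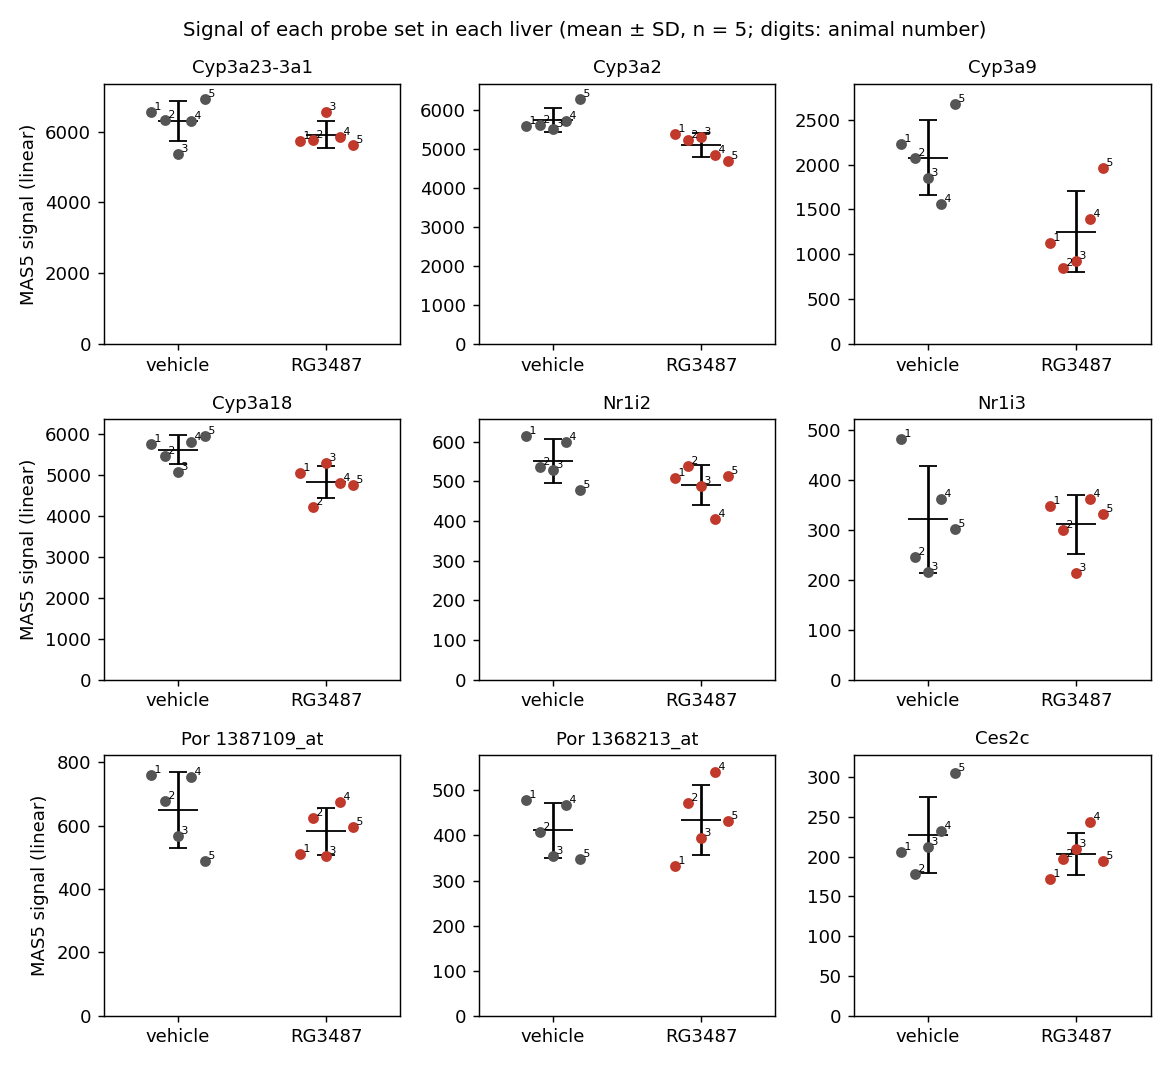
MAS5 signal (linear y axis from 0) of each member probe set in the 5 vehicle (grey) and 5 RG3487 (red) livers, with mean and SD as bars and the animal number beside each point. The 2 Por panels show the representing probe set first. In Cyp3a9 4 of the 5 RG3487 livers lie below all vehicle livers, in Cyp3a2 all 5 do, and in the receptor, Por and Ces2c panels the groups overlap.

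Nr1i2, which encodes PXR, read 614, 535, 528, 600 and 478 in vehicle and 507, 538, 488, 406 and 513 in RG3487 livers. Only RG3487 animal 4 was below all vehicle livers. The means were 551 ± 56 and 490 ± 50, and the log2 change of -0.16 ± 0.088 did not pass (95% interval -0.35 to 0.028, adjusted p = 0.184). It passed with quantile normalization (-0.27, adjusted p = 0.0444), while with hybridization control scaling it turned to 0.032 (adjusted p = 0.767, in a range of 0.0444 to 0.767).

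Nr1i3, which encodes CAR, varied the most among vehicle livers, with 483, 245, 215, 363 and 301, and read 349, 299, 214, 362 and 332 with RG3487. The groups overlapped throughout, at means of 321 ± 107 and 311 ± 59. Its log2 change of -0.011 ± 0.20 had a 95% interval of -0.44 to 0.41 (adjusted p = 0.973). With 5 animals per group, a rise or a fall within that interval thus remains possible. Without vehicle animal 1, the highest, the change was 0.14.

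The 2 probe sets of Por, the reductase that feeds electrons to all microsomal P450 enzymes, differed in sign and neither passed. The one that represents the gene read 761, 678, 566, 753 and 487 with vehicle and 509, 624, 504, 673 and 597 with RG3487 (log2 change -0.14 ± 0.13, adjusted p = 0.417). The second one read 479, 407, 355, 467 and 347 with vehicle and 332, 473, 394, 540 and 433 with RG3487 (0.071 ± 0.13, adjusted p = 0.712). In both probe sets the groups overlapped, and vehicle animals 1, 2 and 4 were the highest 3 vehicle livers.

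Ces2c, a carboxylesterase that cleaves ester and amide drugs, read 206, 178, 212, 232 and 305 in vehicle and 172, 197, 209, 243 and 194 in RG3487 livers. Apart from vehicle animal 5 the values shared 1 range. The means were 227 ± 48 and 203 ± 26, and the change of -0.13 ± 0.13 did not pass (95% interval -0.41 to 0.14, adjusted p = 0.449).

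**Figure D3:**
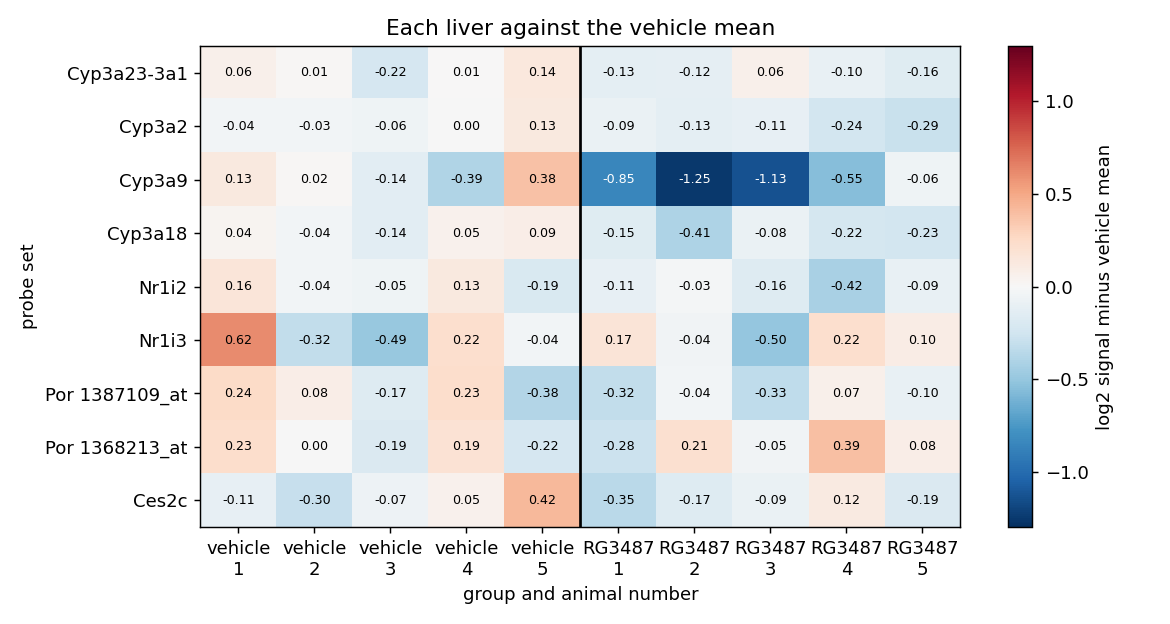
Log2 signal of each member probe set in each liver minus the mean of the 5 vehicle livers (colour and printed values; columns are animals, rows probe sets). Cyp3a9 shows the deepest values, from -1.25 in RG3487 animal 2 to -0.06 in RG3487 animal 5, and Nr1i3 spans -0.49 to 0.62 among the vehicle livers alone.

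Differences between 2 probe sets of the same array hardly depend on a scaling that moves a whole array by 1 factor, but quantile normalization can change them. Of these, 3 were tested by exact permutation of the 10 animals (two-sided), with p-values adjusted over the 3. Cyp3a9 minus Cyp3a18 averaged -1.45 ± 0.27 (SD, n = 5) in vehicle and -2.0 ± 0.48 with RG3487. This difference of -0.55 did not pass (exact p = 0.0714, adjusted p = 0.214), so a larger fall of Cyp3a9 than of Cyp3a18 was not shown as deposited. With quantile normalization, an alternative chosen after seeing the data, it was -0.72 and passed narrowly (exact permutation, adjusted p = 0.0476, in a range of 0.0476 to 0.357 over the alternatives). The difference between Cyp3a9 and Cyp3a2 was not tested. Without RG3487 animal 5, Cyp3a9 minus Cyp3a18 was -0.73 as deposited (exact permutation, adjusted p = 0.0714). Nr1i2 minus Nr1i3 went from 0.80 ± 0.36 to 0.65 ± 0.36 (exact p = 0.5, adjusted p = 0.75). Por, by the probe set that represents it, minus Cyp3a23-3a1 went from -3.26 ± 0.30 to -3.32 ± 0.24 (exact p = 0.762, adjusted p = 0.762). Its difference of -0.054 became -0.31 with quantile normalization (exact permutation, adjusted p = 0.0714).

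**Figure D4:**
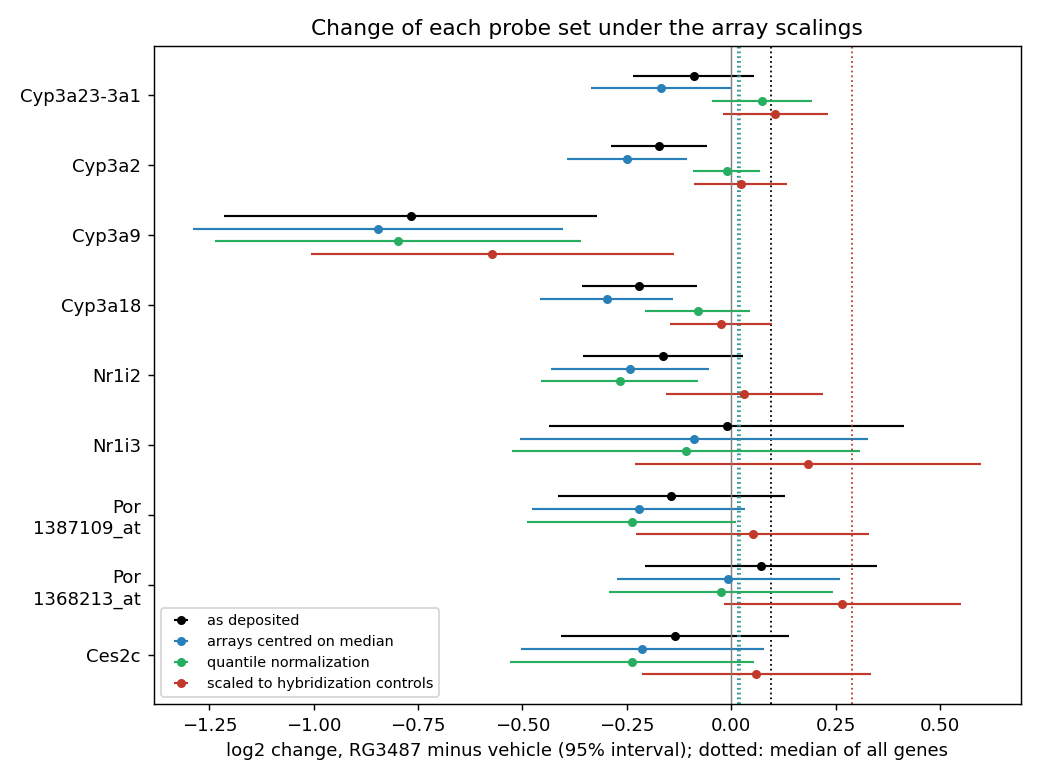
Log2 change (x axis, RG3487 minus vehicle, points with 95% intervals) of each member probe set as deposited and under 3 other array scalings; dotted lines mark the median change of all genes under each. Only the intervals of Cyp3a9 lie below 0 under all 4 scalings, while the estimates of Cyp3a23-3a1 and Cyp3a2 move to the other side of 0 under hybridization control scaling.

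The genes with the pattern most like each called member were found by the smallest root mean square difference, over the 10 livers, of log2 values centred on the vehicle mean. For Cyp3a9 they were Fgl1, a protein secreted by hepatocytes (difference 0.298, log2 change -0.60 ± 0.12, adjusted p = 0.00443), and Colq (0.306, -0.64 ± 0.099, adjusted p = 0.000854). Fgl1 read 2892, 1871, 2746, 2485 and 3249 in the RG3487 animals. As for Cyp3a9, animal 2 was the lowest and animal 5 the highest, which a choice by likeness favours. For Cyp3a2 they were the plasma protein genes Serpina3c (0.0552, -0.23 ± 0.049) and Fetub (0.0562, -0.21 ± 0.047). Both were brighter than Cyp3a2, with means of 6876 and 8413 in vehicle and 5868 and 7269 with RG3487. They thus share the brightest 1% of the array, whose median change was -0.15, and the part of brightness in this likeness was not tested. For Cyp3a18 they were Ndufv1, a complex I subunit gene (0.0692, -0.23 ± 0.058), and Kdsr (0.0769, -0.22 ± 0.079), which did not pass (limma adjusted p = 0.0531). The mean signal of Kdsr went from 45.8 in vehicle to 37 with RG3487. It passed the filter on low signal, at 40.2, only through the vehicle livers. Colq was also dim, at 73.2 in vehicle and 41.6 with RG3487. The likeness is a ranking over 10 livers that share the treatment.

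Of 100 other genes listed for the pathway, 60 were tested, and 12 were higher and 12 lower (limma), against 29.7% of all 7727 genes called in either direction, 22.3% higher and 7.4% lower. The median change of the 60 was -0.049, against 0.0944 for all genes. Other CAR and PXR targets had 7 of 22 higher and 1 lower, Cyp2a2, which is also among the sex-dependent genes, with a median of 0.12. The 4 with the smallest p were Gstm3, a glutathione transferase gene (29.6 to 186, log2 change 2.16 ± 0.23), Abcc2, the canalicular export pump of conjugates (537 to 1008, 0.88 ± 0.097), Gstm1 (5554 to 7532, 0.44 ± 0.053) and Ephx1, the microsomal epoxide hydrolase (2424 to 5801, 1.29 ± 0.17). In each of these 4 the groups did not overlap, as in 20.2% of all genes. Here and in the lists below, named genes were chosen by smallest p, which favours groups without overlap. The vehicle mean of Gstm3 lay below the filter on low signal, which it passed only through the RG3487 livers, and its change was 2.69 with a pseudocount of 1 and 1.40 with 64. The same held for Cyp7a1 and for Cyp1a1, so that 3 of the 24 pathway calls had to differ to be tested. These genes have other known regulators too. The targets counted as higher include Cyp7a1 (2.14 ± 0.45). The counts do not sort the targets by the direction in which CAR or PXR acts on them. Cyp2b1 and Cyp2b2, the best known CAR targets, had no probe set of their own and were not analysed here. Median centring gave 7 targets higher and 4 lower, and hybridization control scaling 11 and 0.

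Receptor partners and coregulators had 2 of 14 higher and 1 lower. Nr0b2, the repressor SHP, fell from 331 ± 125 to 119 ± 42 (-1.36 ± 0.23, adjusted p = 0.00158), with vehicle livers at 548, 329, 276, 253 and 249 and RG3487 livers at 174, 89, 100, 79 and 152, without overlap. Hnf4a, a hepatocyte factor known to sustain PXR and CYP3A transcription, rose from 2313 ± 192 to 2826 ± 165 (0.29 ± 0.064, adjusted p = 0.00653), and the groups did not overlap. Hsp90ab1, a chaperone gene of cytosolic receptor complexes, rose from 2694 to 3274 (0.28 ± 0.065, adjusted p = 0.00774). The list's median was -0.00052, and 6 were higher and 1 lower with hybridization control scaling.

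In the electron transfer list 0 of 6 were higher and 1 lower as deposited. The 1 was Pgrmc2, a haem-binding membrane protein, which fell from 1082 ± 41 to 818 ± 75 (-0.40 ± 0.066, adjusted p = 0.00133) without overlap. With hybridization control scaling 4 of the 6 were higher and Pgrmc2 stayed the 1 lower. Among carboxylesterases and the related deacetylase 3 of 4 were lower and 0 higher, with a median of -0.35. Aadac did not pass. Ces1d fell from 4662 ± 673 to 2786 ± 233 (-0.73 ± 0.099, adjusted p = 0.000439), Ces1e from 766 ± 51 to 573 ± 47 (-0.41 ± 0.07, adjusted p = 0.00153) and Ces1c from 5653 ± 177 to 4790 ± 240 (-0.24 ± 0.045, adjusted p = 0.00261). The call of Ces1c was lost with quantile normalization (adjusted p = 0.156) and with hybridization control scaling (0.494), whereas those of Ces1d and Ces1e were kept. Ces2c, the member of the other esterase class, had a smaller change that did not pass, and the differences between Ces2c and the Ces1 genes were not tested.

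Genes of sex-dependent P450 and steroid enzymes had 1 of 6 higher and 2 lower, with a median of -0.084. Cyp2c12, known as a form of female rats, rose from 183 ± 46 to 977 ± 360 (2.27 ± 0.24, adjusted p = 0.000101), while Cyp3a9, also known as more abundant in females, fell. Cyp2c12 read 789, 876, 1417, 536 and 1269 in RG3487 animals 1 to 5 and 124 to 232 in vehicle. Cyp2a2, a form of males, fell from 3128 to 2612 (-0.26 ± 0.068, adjusted p = 0.0134), and Cyp2c13 by less (-0.14 ± 0.045, adjusted p = 0.0423). Cyp2c11 (-0.036 ± 0.053, limma adjusted p = 0.642), Cyp2c7 (-0.13 ± 0.056, 0.0995) and Hsd3b5 (0.089 ± 0.059, 0.278) did not pass as deposited. Hsd3b5 was higher with quantile normalization (0.17, limma adjusted p = 0.0367). With hybridization control scaling Cyp2c11 (0.16) and Hsd3b5 (0.28) were higher, and the list had 3 higher and 0 lower. The Cyp2a2 call was lost with hybridization control scaling (-0.067, adjusted p = 0.426). Cyp2c13 turned to 0.012 with quantile normalization (adjusted p = 0.811) and to 0.06 with hybridization control scaling, and its call was lost without any 1 of vehicle animals 1, 3, 4 and 5 and RG3487 animals 1, 2, 4 and 5.

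Other drug-metabolizing P450 genes had 2 of 10 higher and 5 lower, with a median of -0.31. Cyp1a1, a target of the aryl hydrocarbon receptor, rose from 14.6 ± 9.6 to 258 ± 82 (3.17 ± 0.23, adjusted p = 1.13e-05). Its vehicle signals of 25, 4, 7, 24 and 13 were too low to fix the size of the rise, which was 4.27 with a pseudocount of 1 and 2.01 with 64. Cyp2d3 fell from 5372 ± 251.9 to 3774 ± 274 (-0.51 ± 0.057, adjusted p = 0.000141), Cyp2t1 from 261 ± 17 to 147 ± 19 (-0.77 ± 0.087, adjusted p = 0.000146) and Cyp2d2 from 7025 to 5783 (-0.28 ± 0.047, adjusted p = 0.00133). None of these 4 genes, chosen by smallest p, had overlapping groups, nor did 20.2% of all genes. Cyp1a1 passed the filter on low signal only through the RG3487 livers. The call of Cyp2d2 was lost with hybridization control scaling (-0.085, adjusted p = 0.149). With hybridization control scaling the list had 3 higher and 4 lower.

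**Figure D5:**
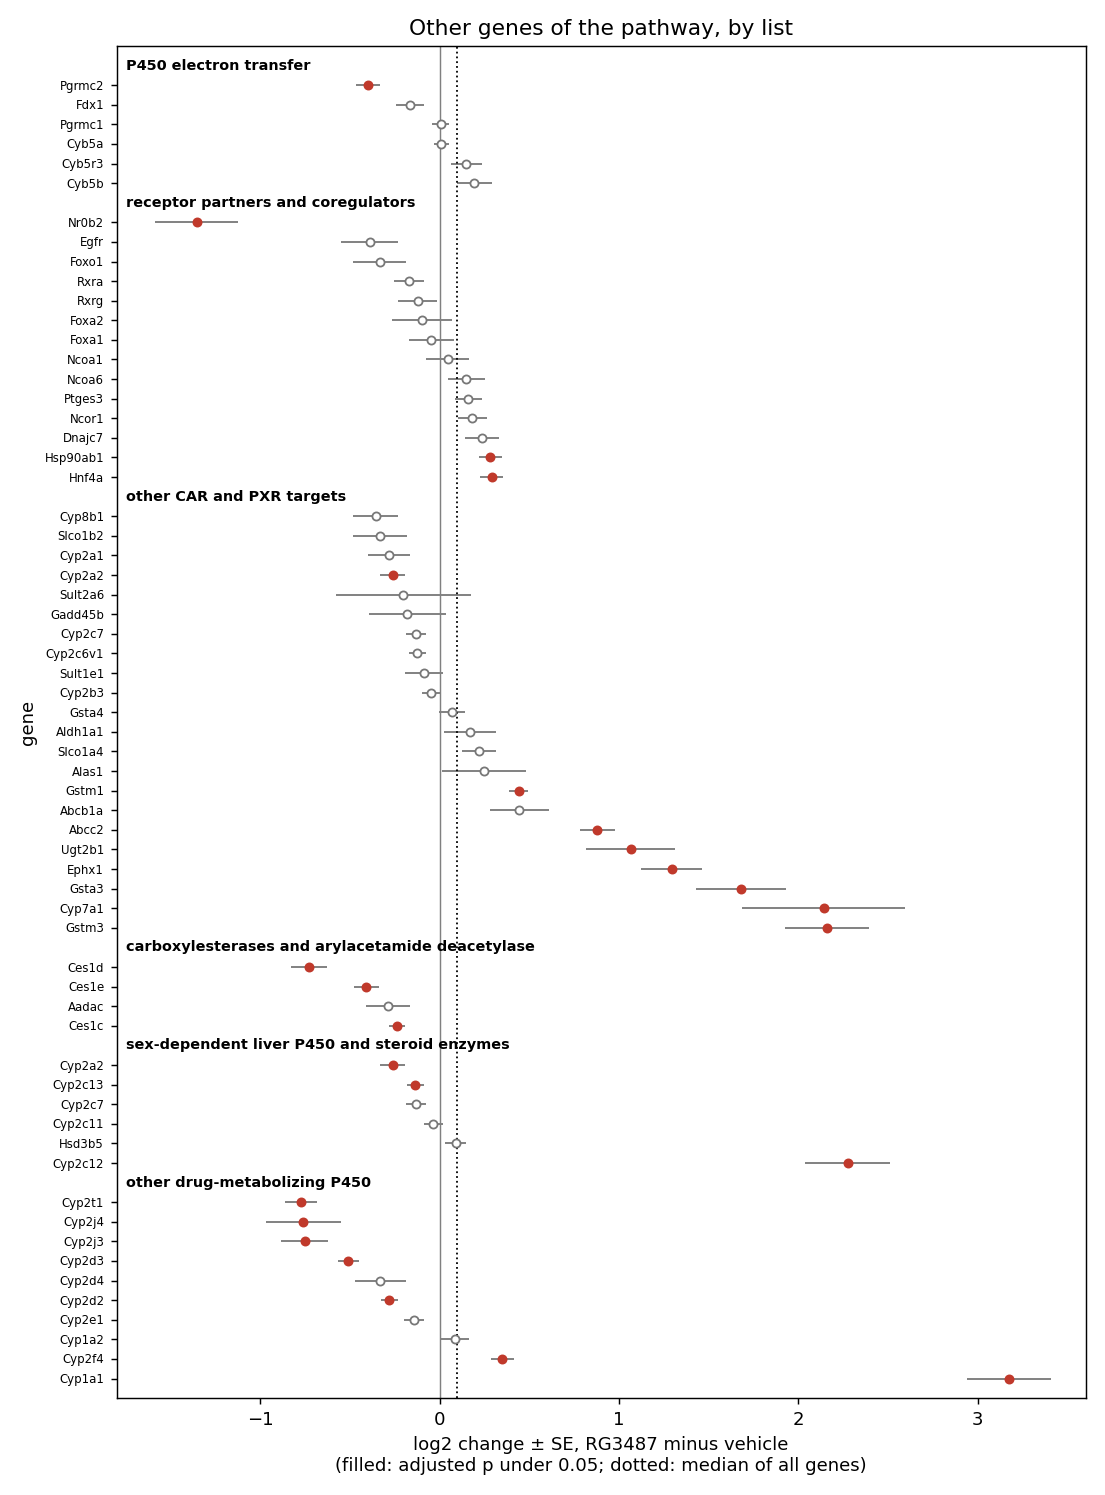
Log2 change (x axis, RG3487 minus vehicle, ± SE) of each tested gene of the 6 pathway lists; filled points have an adjusted p under 0.05 and the dotted line is the median of all genes (0.0944). Increases of more than 1 are seen in the target, sex-dependent and other P450 lists, and the carboxylesterase list lies wholly below 0.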

How the data were processed

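RNA from 10 rat livers was hybridized to Affymetrix arrays from 1 ug of total RNA each, per the labels. The deposited table holds a MAS5 signal intensity per probe set, linear and in whole numbers, made by the authors with MAS5 per the submitters' processing notes; its version is not given in the sources used here, nor is the scaling target. Nearly equal array means show that the deposited intensities had been scaled per array. For arrays, the number of animals limits the precision.

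Of 15859 probe sets that are not controls, 12562 have 1 gene symbol in the platform annotation, 332 several and 2965 none. Symbols were updated through Entrez identifiers or accessions, which changed 1. Signals were taken as log2(signal + 16). This scale makes folds of dim genes smaller. Probe sets in the dimmest 25% by mean log2 over all arrays were left out. The groups were compared over all 11894 others with limma 3.58.1 in R 4.3.3 (lmFit, eBayes with a mean-variance trend, two-sided). Each gene was read from its tested 1-symbol probe set of highest mean. The code was tested on simulated data. The smallest exact permutation p of 5 against 5 is 0.00794. The brightest probe sets were described, and single values checked with Dixon's ratio (critical value 0.71).

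Named were all members, up to 4 called genes with the smallest p in each list, and for each called member the 2 most similar genes with a change of at least 0.2. The members, lists and alternatives were chosen with earlier results of these data known. Alternatives covered pseudocount, array scaling, filter, variance model, array weights, replicate block, threshold, choice of probe set and each animal left out. RefSeq start-site windows (GRCr8) were searched for half-sites in Python 3.11.15, with Biopython 1.88 for alignment. Protein sequences were not used here.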

Additional observations from a re-analysis of the deposited data

Results flagged for a closer look

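Among 18 groups of 5 values checked, 2 for each member probe set, 1 had a single far value. Cyp3a23-3a1 in RG3487 animal 3, at a signal of 6568, stood apart from the other 4 RG3487 livers, with a gap to the nearest of 0.728 of the group's range. Chance gives about 1 such value in 20 groups.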

How the results depend on the processing

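Over 22 alternatives, the calls of Cyp3a9 were all kept. Of all probe sets, 3295 were called, and 7037 with scaling to the hybridization controls, under which the members called were 1 by probe set and 1 by gene, against 3 as deposited. That scaling turned the sign of Cyp3a2 (0.023), Cyp3a23-3a1 (0.11), Nr1i2 (0.032), Nr1i3 (0.18), Ces2c (0.061) and the Por probe set that represents the gene (0.052). Quantile normalization turned Cyp3a23-3a1 (0.075) and the second Por probe set (-0.024), median centring turned the second Por probe set (-0.0071), and array weights turned Nr1i3 (0.020). With 1 animal left out, 1 to 3 member probe sets and 1 to 3 member genes were called, with 1 without vehicle animal 4 or 5. The change then ranged from -0.13 to 0.14 for Nr1i3 and from -0.0095 to 0.16 for the second Por probe set. That of Por minus Cyp3a23-3a1 ranged from -0.19 to 0.032. Cyp3a9 minus Cyp3a18 passed with quantile normalization, added after seeing the data (-0.72). The cause of these turns was not tested. Pathway genes called numbered 23 to 35, against 24 as deposited. The replicate numbers do not pair the animals (correlations of same-numbered deviations -0.037 to 0.17). With them as a replicate block 2918 probe sets and 2 member probe sets were called, and Cyp3a2 lost its call (adjusted p = 0.0834).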
